A study of Mus musculus with 12 samples.

Results

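PROSER1 KO cells were compared with wild-type (WT) cells after 48 hr (day 2) in N2B27, the serum-free medium that lets mouse embryonic stem cells (mESCs) leave pluripotency and move toward neural progenitors. RNA sequencing libraries of both genotypes at this stage were chosen by their labels, 2 KO and 2 WT of the 12 libraries in the series, and the comparison covered the 15335 of 35976 genes whose normalised counts averaged 10 or more across the 12 libraries and that were not Y-linked. All lines descended from feeder-free Tet2 fl/fl mESCs with no Cre named, kept in medium with serum, LIF, the MEK inhibitor PD0325901 and the GSK3 inhibitor CHIR99021. These inhibitors were not part of the N2B27 recipe. The KO was 1 clone from a single cell edited with a guide against exon 1 of Proser1 and screened for loss of the protein, and KO+Rescue was this clone carrying an inserted FLAG-tagged Proser1, again subcloned. WT, KO and KO+Rescue mESCs and KO+Rescue cells at day 2, with 2 libraries each, are given beside the comparison where they bear on it. Both libraries of each group are labelled as biological replicates, but no label tells whether their cultures were kept apart, and the p-values therefore cover the spread between libraries alone. Libraries of a group are named A and B after the table's columns, which mark the KO line by a clone code that the labels do not spell out.

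PROSER1 binds the TET enzymes, which oxidise methylated cytosine and so open a path to its removal, and the O-GlcNAc transferase OGT. Cells that leave the naive state switch off factors such as Esrrb and Klf2, pass through a formative state marked by Fgf5 and Otx2, and then gain neural genes such as Sox1 unless Nodal or WNT signals divert them toward mesendoderm. Pluripotent cells respond weakly to interferon, and the response becomes available as they differentiate. Interferons signal from receptors at the cell surface to the nucleus, where IRF1 is among the factors that switch on genes for antiviral effectors, antigen presentation and large GTPases that attack intracellular pathogens.

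The 4 libraries held 61111817 to 66450803 assigned read pairs. The 2 WT libraries differed from each other more than the 2 KO libraries did. The median absolute log2 difference between A and B was 0.30 in WT and 0.14 in KO, and ribosomal protein genes took 12.8% and 16.2% of the reads in WT A and B against 16.9% in each KO library. The 6 expressed Y-linked genes that were left out had normalised counts of 372 to 5200 in the KO day 2 libraries and 0 to 6.52 in the WT ones, so the WT and KO lines differ in Y-linked expression, and this difference between the lines cannot be told apart from the loss of PROSER1. Cells labelled as day 2 in N2B27 still held Pou5f1, the master factor of pluripotency, at 45341 and 61662 in WT and 84294 and 76372 in KO, while the neural marker Hes5 stayed at or under 26.0. The macrophage genes Adgre1 and Csf1r were at 0 in all 4 libraries, where a floor of 3 counts is worth a normalised count of 1.82 to 2.24.

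Proser1 RNA was still made in the KO clone. It had normalised counts of 829 and 685 in WT A and B and 872 and 1067 in KO A and B, without overlap, and its log2 change of 0.36 ± 0.20 (SE) did not pass the test (limma, adjusted p = 0.368, n = 2 libraries a group). The KO+Rescue libraries held 3041 and 2994. These counts of the transcript do not check the loss of the protein.

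**Figure D1:**
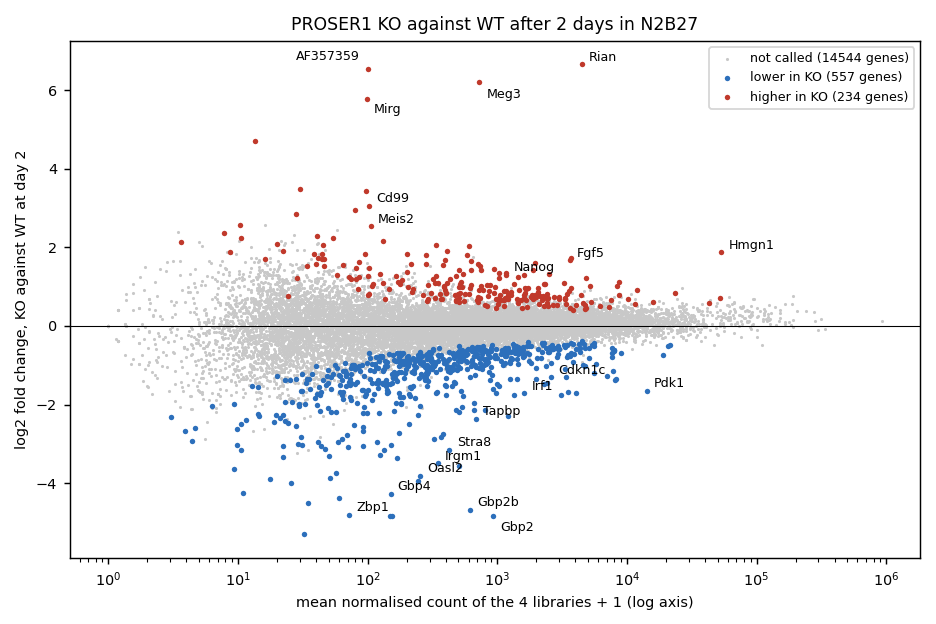
Log2 fold change between KO and WT at day 2 (vertical axis) against the mean normalised count of the 4 libraries plus 1 (horizontal log axis) for 15335 genes, with 234 genes called higher in red, 557 called lower in blue and 14544 not called in gray. Rian and Meg3 stand at the top, Gbp2 and Gbp2b near the bottom, and Hmgn1 is an abundant gene that rose.

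At day 2, 234 genes were higher and 557 lower in KO than in WT (limma on log2 of the normalised count plus 1, Benjamini-Hochberg adjusted p under 0.05). These were 1.53% and 3.63% of all tested genes, or 5.16% in all. Changes of more than 2-fold were held by 108 of the higher and 301 of the lower genes, and changes of more than 4-fold by 22 and 85. The 4 libraries did not overlap between the groups in any of the 791 called genes, a separation that 47.8% of all tested genes showed. Scaling to equal library totals moved the median change of all genes from 0.016 to -0.09 and gave 126 higher and 565 lower genes. Leaving out KO A or KO B left 235 called genes each, and without WT B the split was 339 higher and 363 lower. Of 157 called genes that the naming rule picked, 64 kept their call under every alternative, and the text turns mainly on these.

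Of the 40 gene lists, the interferon-induced GTPases had the lowest median change. The called gene with the lowest fitted change was Slc5a4a, of a sugar transporter family, at 72.0 and 51.4 in WT and 1.48 and 0 in KO, and its call was lost without KO B (adjusted p = 0.104). Guanylate-binding proteins (GBPs) and immunity-related GTPases coat and break the vacuoles of intracellular pathogens. Of 11 tested members of this family 10 fell and 0 rose, with a median log2 change of -3.50 beside 0.02 over all tested genes. Gbp2 had normalised counts of 1610 and 1994 in WT and 76.1 and 49.4 in KO, a 28.8-fold fall (log2 -4.85 ± 0.48, SE, adjusted p = 7.63e-05). Gbp2b, next to it on chromosome 3, had 1128 and 1226 in WT and 40.6 and 50.1 in KO and fell 25.5-fold (-4.67 ± 0.40, adjusted p = 2.17e-05). Both KO libraries lay far below both WT libraries for each of these neighbours. Gbp4, in a second cluster on chromosome 5, had 269 and 297 in WT and 8.86 and 20.9 in KO and was 19.3-fold lower (adjusted p = 2.12e-05). Irgm1, a regulator of the immunity-related GTPases on chromosome 11, had 671 and 605 in WT and 56.1 and 54.6 in KO and fell 11.3-fold (adjusted p = 4.15e-06). Gbp3 fell 28.5-fold. The chromosome 11 genes Igtp and Irgm2 fell 3.51-fold and 4.65-fold, Gbp7 fell 8.43-fold and Gbp9 2.41-fold, with adjusted p between 0.0130 and 0.0319. Gbp8 was the tested member with no call, at 13.3 and 15.2 in WT and 11.8 and 15.7 in KO. Of the members under the filter on low values, Gbp6 had 23.6 and 30.4 in WT and 0 and 0.748 in KO, and Mx1 was at 0 in all 4 libraries. Between 5 and 8 members were called with 1 library left out. Gbp7 and Irgm2 lost the call without any 1 of the 4 libraries (adjusted p from 0.0622 to 0.201), Igtp without KO A (0.0802) or KO B (0.130), and Gbp9 without KO A (0.179), KO B (0.172) or WT A (0.209). Gbp2 and Gbp2b are similar in sequence, as are others of the family. How the gene counts treated reads that fit both is not stated, and such reads may affect the values of either gene.

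The DNA just upstream of these genes is shown to describe its letters. The list was drawn up as interferon-induced genes and holds related copies. A shared motif of the interferon response is therefore no independent result about the KO. The interferon-stimulated response element (ISRE) is bound by IRF factors, and the gamma-activated site (GAS) is an element of the response to interferon gamma. The letters GAAA, any 2 bases and GAAA again were searched as an ISRE-like motif and TTCNNNGAA as a GAS-like motif, on both strands of the 250 bases before the gene start in RefSeq (GRCm38.p6). Promoters were found for 8 of the 11 tested GTPase genes, and 8 of 8 held the ISRE-like motif, against 2.42% of the 11394 tested genes with a promoter. The GAS-like motif was in 4 of 8, against 5.88%. In the 160 bases before the start of 6 of these genes below, read 5′ to 3′ on the strand of the gene, capitals mark matches to either motif.
Gbp2 (chr3:142620503-142620662, plus strand): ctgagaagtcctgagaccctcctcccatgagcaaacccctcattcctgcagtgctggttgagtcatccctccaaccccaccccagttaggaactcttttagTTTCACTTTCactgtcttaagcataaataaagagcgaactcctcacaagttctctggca
Gbp2b (chr3:142594687-142594846, plus strand): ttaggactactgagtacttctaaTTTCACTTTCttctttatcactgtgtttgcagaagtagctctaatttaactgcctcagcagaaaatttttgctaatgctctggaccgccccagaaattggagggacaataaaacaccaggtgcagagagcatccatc
Gbp3 (chr3:142559884-142560043, plus strand): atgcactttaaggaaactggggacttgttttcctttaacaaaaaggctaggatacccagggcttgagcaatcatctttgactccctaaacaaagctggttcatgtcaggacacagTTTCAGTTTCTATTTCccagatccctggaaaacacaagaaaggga
Gbp7 (chr3:142530176-142530335, plus strand): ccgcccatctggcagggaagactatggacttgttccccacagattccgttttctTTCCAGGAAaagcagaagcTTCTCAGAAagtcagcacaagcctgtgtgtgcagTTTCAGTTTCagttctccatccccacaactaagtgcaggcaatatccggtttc
Irgm1 (chr11:48871421-48871580, minus strand): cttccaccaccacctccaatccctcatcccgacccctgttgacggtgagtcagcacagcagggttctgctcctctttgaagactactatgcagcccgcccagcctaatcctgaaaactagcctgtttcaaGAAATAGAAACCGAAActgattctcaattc
Igtp (chr11:58199396-58199555, plus strand): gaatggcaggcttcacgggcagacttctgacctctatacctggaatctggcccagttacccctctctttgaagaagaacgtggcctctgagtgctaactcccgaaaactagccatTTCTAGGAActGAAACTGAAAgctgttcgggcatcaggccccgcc
The ISRE-like match began 59 bases before the start in Gbp2, 137 in Gbp2b and 34 in Igtp, and Gbp3 and Irgm1 each held 2 overlapping matches. Among all genes called lower 24 of 419 promoters held it, and among those called higher 3 of 164, or 5.73% and 1.83%. The 24 include the 8 GTPase promoters above, so the 2 shares are not a separate result. A match is a description of the letters and not a sign that a factor was bound there.

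Sensors and effectors of the antiviral response fell less uniformly. Of 36 tested members 10 fell and 0 rose, and 35 of the 36 had a change below 0, with a median of -0.54. Zbp1, a sensor of Z-form nucleic acids that triggers cell death, had normalised counts of 130 and 146 in WT and 2.96 and 5.24 in KO, 27.9-fold lower (log2 -4.80 ± 0.39, adjusted p = 1.33e-05). Oasl2, of the oligoadenylate synthetase family, had 557 and 388 in WT and 31.8 and 32.2 in KO and fell 14.1-fold (adjusted p = 6.50e-05). The ADP-ribosyltransferase Parp14 had 332 and 284 in WT and 25.9 and 32.9 in KO, 10.2-fold lower (adjusted p = 7.33e-06). Each KO pair was again well apart from the WT pair. Tmem173, which encodes the DNA-response adaptor STING, fell 6.42-fold, and its WT libraries differed from each other at 198 and 118. Parp9 and Ifi35 fell 3.05-fold and 3.35-fold. Other members lay near their WT level, among them the interferon-induced membrane protein gene Ifitm3 (log2 -0.18) and the RNA-editing enzyme gene Adar (log2 -0.12), neither of which passed the test. The ISRE-like letters were in 9 of the 28 promoters found for this list but in 1 of the 6 of its called genes, unlike in the GTPase family. Leaving out 1 library gave 6 to 9 members called lower, and without WT B 1 was called higher. Without genes of chromosomes 11 and 16, an alternative added after seeing the data, 4 of 29 fell. Parp14, Parp9, Ifi35, Trim25 and Dtx3l lie on these chromosomes, and Ifih1, on chromosome 2 with an adjusted p of 0.0492 among all genes, lost its call.

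Genes of antigen presentation fell in part. The immunoproteasome and the peptide-loading complex cut peptides and load them on MHC class I. Of 21 tested members 7 fell and 0 rose (median -0.79). Psmb8, an immunoproteasome subunit, had normalised counts of 383 and 539 in WT and 29.6 and 27.7 in KO and fell 15.4-fold (log2 -3.94 ± 0.39, adjusted p = 7.81e-05). Tapbp, which encodes the loading chaperone tapasin, had 1242 and 1048 in WT and 232 and 211 in KO (5.14-fold lower, adjusted p = 6.07e-06). Erap1, which trims peptides in the endoplasmic reticulum, fell 4.18-fold (adjusted p = 0.000320). The heavy chain gene H2-K1 had 3478 and 3393 in WT and 1904 and 1656 in KO, a smaller fall of 1.93-fold (adjusted p = 0.00108). Tap1, a peptide transporter subunit outside the naming rule, had a log2 change of 0.25 and was not called, while Psmb8 was 15.4-fold lower. Between 4 and 9 members were called lower when 1 library was left out, and 11 with equal library totals.

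Upstream of these targets the changes were smaller and in both directions. Of 28 tested genes of interferon signalling 6 fell and 3 rose (median -0.26). Irf1, a transcription factor that activates interferon-response genes, had 2228 and 2715 in WT and 725 and 768 in KO and fell 3.29-fold (log2 -1.72 ± 0.13, adjusted p = 1.22e-05). This fall held with any of the 4 libraries left out. The type I receptor genes Ifnar1 and Ifnar2 went the other way, from 1390 and 1445 to 1965 and 2017 for Ifnar1 (log2 0.49 ± 0.12, adjusted p = 0.0272), and from 223 and 225 to 366 and 336 for Ifnar2 (0.64 ± 0.17, adjusted p = 0.0421). Both receptor genes lie on the distal part of chromosome 16 described below, and both lost their call without any 1 of the 4 libraries (adjusted p from 0.0559 to 0.258). With 1 library left out 3 members fell and 0 or 1 rose, and with equal library totals 6 fell and 0 rose. Of the ligands, Ifnb1 and Ifng, named outside the rule, were at 0 in all 12 libraries.

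The stage at which KO and WT differed was not the same for all of these genes. Gbp2 averaged 64.5 in WT mESCs and 45.9 in KO mESCs, a log2 difference of -0.47 that did not pass the test (adjusted p = 0.524). The KO difference at day 2 departed from that in mESCs (interaction term of KO and stage, a test that called 1.12% of all genes) for Gbp2 (adjusted p = 0.00694), Gbp2b (0.00328), Gbp3 (0.0146), Gbp4 (0.00473), Zbp1 (0.00186), Parp14 (0.00464), Tapbp (0.00179) and Irf1 (0.00328). For Irgm1, Psmb8 and Oasl2 KO was already lower in mESCs, in a test that called 9.41% of all genes, with log2 changes of -2.26, -2.48 and -2.42, and the interaction was not called (adjusted p = 0.104, 0.278 and 0.267). KO+Rescue cells at day 2 held Gbp2 at 68.0 and 49.8, Zbp1 at 4.69 and 2.82 and Irf1 at 559 and 480. In the test of KO+Rescue against KO, which shares the KO libraries and called 1.83% of all genes, the 11 GTPase genes had a median of -0.49, with adjusted p = 0.956 for Gbp2 and 0.303 for Irgm1.

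**Figure D2:**
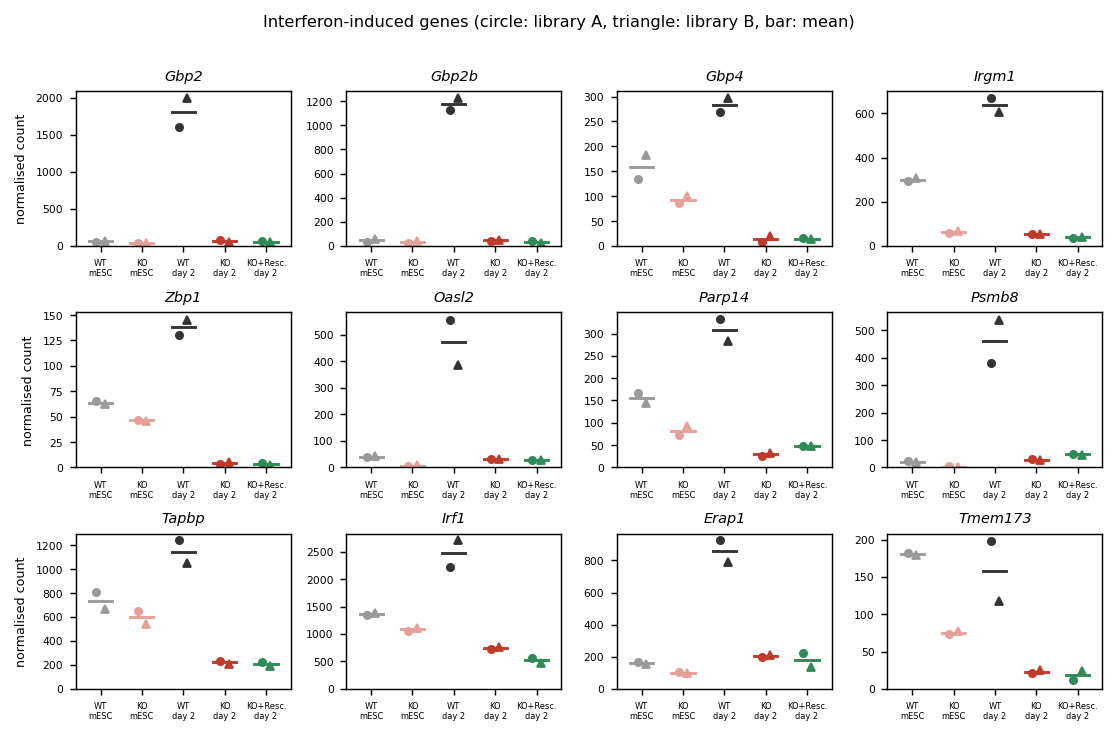
Normalised counts (vertical axes, linear from 0) of 12 interferon-induced genes in WT and KO mESCs and in WT, KO and KO+Rescue cells at day 2, with circles for library A, triangles for library B and bars for group means. For Gbp2 the WT day 2 libraries stand at 1610 and 1994 and the other groups average between 45.9 and 64.5.

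Markers of other cell types that a culture could hold are given beside these falls, and their part in them was not tested. The 6 tested genes of the blood and immune list had a median log2 change of -0.70 with 5 below 0, and the list summed to 1328 and 1369 in WT and 972 and 929 in KO. Adgre1, Csf1r and Hbb-bt were at 0 in all 4 libraries, and Ptprc was at 9.08 and 5.07 in WT and 2.95 and 13.5 in KO. The tested members were above the floor, with Cd3e at 19.4 and 37.7 in WT and 17.0 and 10.5 in KO, Cd79a at 35.7 and 54.3 against 25.9 and 26.2, and Cd14 at 44.8 and 72.5 against 21.4 and 22.4. Laptm5 was at 161 and 144 in WT and 82.0 and 112 in KO and Coro1a at 999 and 988 against 752 and 668, while Itgam was higher in KO, at 43.0 and 56.5 against 68.0 and 68.1. In the fibroblast and feeder list 4 of 14 rose and 0 fell (median 0.47), and the list summed to 13396 and 12471 in WT and 18682 and 17157 in KO. Acta2, a smooth muscle actin, had 24.8 and 11.6 in WT and 119 and 159 in KO (7.67-fold higher, adjusted p = 0.000340). Of the 14 genes 10 had a change above 0 and 4 below. Without a call, Dcn was at 255 and 258 in WT and 377 and 384 in KO, and Thy1 at 746 and 721 against 1108 and 941. The collagen gene Col1a1 was not higher, with 118 and 70.3 in WT and 43.6 and 33.7 in KO, and Postn and Lum were at or under 2.17. Between 1 and 4 members of this list were called higher with 1 library left out.

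**Figure D3:**
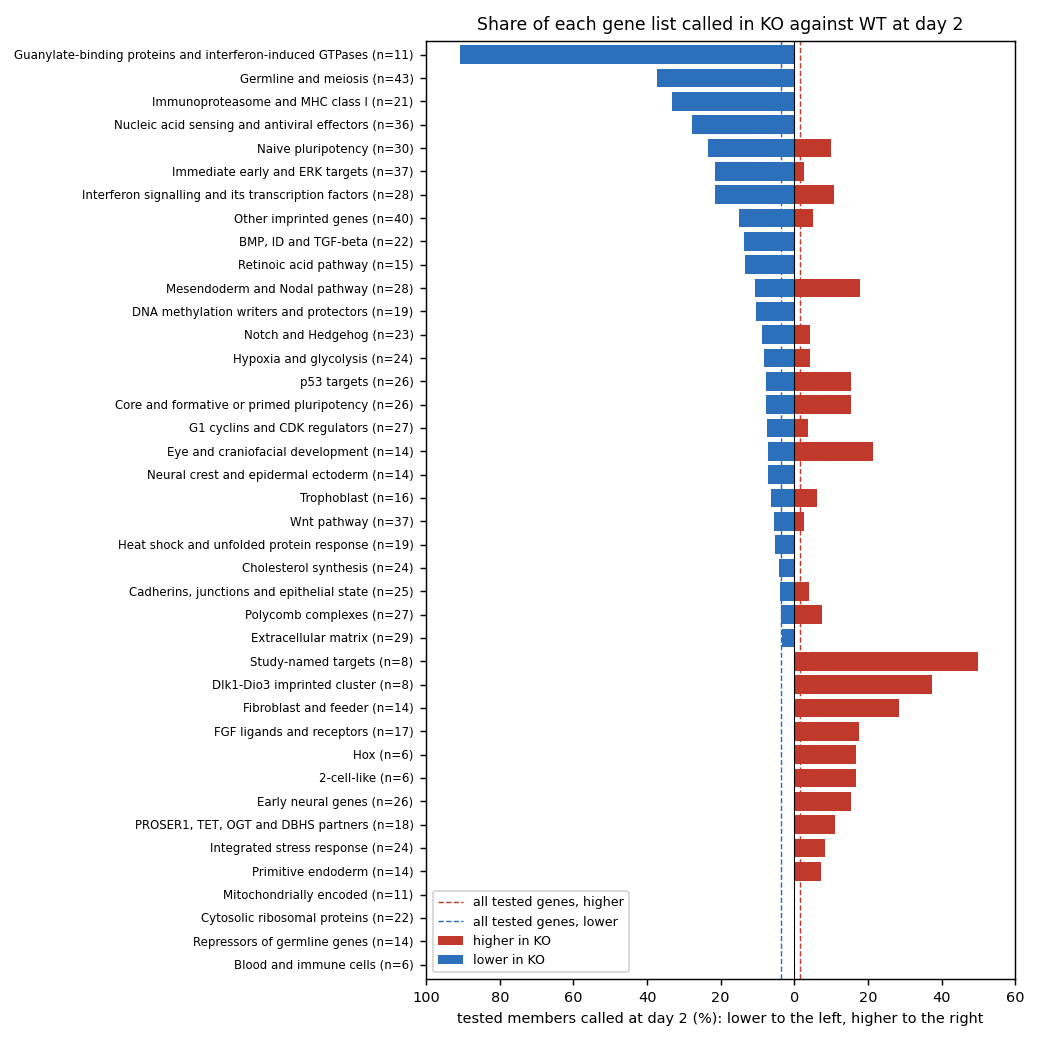
Percent of the tested members of 40 gene lists that were called lower (blue, to the left) or higher (red, to the right) in KO against WT at day 2, with dashed lines at the shares of all tested genes (3.63% lower and 1.53% higher). The GTPase list reaches 90.9% to the left.

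Part of the naive pluripotency genes fell at day 2, while Nanog rose. Of 30 tested naive genes 7 fell and 3 rose (median -0.26). Esrrb, an orphan nuclear receptor of the naive network, had normalised counts of 357 and 307 in WT and 103 and 126 in KO and fell 2.90-fold (log2 -1.54 ± 0.21, adjusted p = 0.000874). Nr5a2, a nuclear receptor that can induce Pou5f1, had 148 and 114 in WT and 26.6 and 40.4 in KO (3.87-fold lower, adjusted p = 0.000170). The adhesion gene Pecam1 had 762 and 929 in WT and 242 and 248 in KO (3.43-fold lower, adjusted p = 1.96e-05). All 3 had higher counts in mESCs, where Esrrb averaged 10042 in WT and 8200 in KO. Il6st, the gp130 receptor chain for LIF, fell 1.98-fold. Stat3, which carries the LIF signal, fell 2.17-fold and Klf2, a factor of the naive state, 2.12-fold, calls that were lost without KO A for Stat3 (adjusted p = 0.0511) and without KO B for Klf2 (0.0526). The 3 naive list members that rose, Fgf4, Jam2 and Tet2, kept no call in a majority of the fits with 1 library left out, and with 1 library left out 5 to 7 naive genes fell and 0 to 4 rose. With equal library totals 8 fell and 0 rose.

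Nanog, a pluripotency factor that is switched back on in the primed epiblast, had normalised counts of 518 and 865 in WT and 1691 and 1621 in KO, a 2.47-fold rise (log2 1.30 ± 0.19, adjusted p = 0.00131), and stood at 590 and 564 in KO+Rescue. Of 26 core, formative and primed genes 4 rose and 2 fell (median 0.07). The formative ligand Fgf5 had 2062 and 1449 in WT and 5641 and 5359 in KO (3.18-fold higher, adjusted p = 0.0353), and the call was lost without KO A (0.204), KO B (0.207) or WT B (0.110). Tcf15, a factor that primes cells to leave the naive state, fell from 1211 and 1336 to 554 and 434 (2.59-fold, adjusted p = 0.00204). Otx2 was also called higher, from 2717 and 2701 in WT to 3852 and 4174 in KO. So was Zic2, from 3585 and 2954 to 5638 and 5672. Both of these calls were lost with equal library totals. Some other genes of the formative program had no call. Among them were Pou3f1, at 10465 and 6241 in WT and 9462 and 9317 in KO, and the methyltransferase gene Dnmt3b, with a log2 change of 0.53 (adjusted p = 0.0882). With equal library totals the median of this list was -0.04, with 1 gene higher and 2 lower. With 1 library left out 1 to 4 members rose and 1 to 3 fell.

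Early neural genes lay mostly above WT, with few calls. Of 26 tested members 4 rose and 0 fell, and 19 of 26 had a change above 0 (median 0.42). Meis2, a homeodomain factor, had normalised counts of 31.5 and 29.0 in WT and 188 and 171 in KO, a 5.78-fold rise (log2 2.53 ± 0.26, adjusted p = 9.48e-05), and 71.6 and 72.3 in KO+Rescue. Sox1, the earliest neuroectoderm factor, had 44.2 and 37.0 in WT and 140 and 154 in KO (3.57-fold higher, adjusted p = 0.00707), and its call was lost without KO A (0.0614) or KO B (0.0865). It was not lowered in KO+Rescue, at 181 and 178. Nes, which encodes the progenitor filament nestin, had 3723 and 2024 in WT and 4103 and 3926 in KO and was not called (adjusted p = 0.244). Leaving out 1 library, 1 to 5 members rose and 0 or 1 fell. Gli2, an effector of Hedgehog signalling, had 99.3 and 113 in WT and 296 and 344 in KO (2.99-fold higher, adjusted p = 0.000120), a difference that was not present in mESCs (log2 -0.16, interaction adjusted p = 0.00328). The other 22 tested Notch and Hedgehog genes held no further rise and 2 falls, Notch1 and Hes1, of which 0 or 1 was left with 1 library left out.

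Genes of mesendoderm and Nodal signalling changed in both directions. Nodal, a TGF-β family ligand, keeps epiblast cells from neural fate and induces its own inhibitors Lefty1 and Lefty2. Of 28 tested members 5 rose and 3 fell (median 0.28). The transcription factor Eomes had normalised counts of 117 and 65.2 in WT and 310 and 312 in KO, a 3.52-fold rise (log2 1.82 ± 0.25, adjusted p = 0.000914). Follistatin, an activin antagonist encoded by Fst, had 1090 and 646 in WT and 2050 and 1951 in KO (2.38-fold higher, adjusted p = 0.00309). Trh, which encodes a neuropeptide precursor made in the pluripotent epiblast, had 5200 and 5718 in WT and 12233 and 11450 in KO (2.17-fold higher, adjusted p = 0.000322). The Lefty genes fell, with Lefty2 at 1901 and 2266 in WT and 629 and 604 in KO (3.36-fold lower, adjusted p = 6.07e-06) and Lefty1 2.27-fold lower. The third fall was in the homeobox gene Hhex, from 173 and 181 to 86.4 and 104, a call lost without any 1 of the 4 libraries (adjusted p from 0.0858 to 0.233). Nodal itself rose 1.67-fold, from 1269 and 1716 to 2583 and 2355, and lost its call without KO A (adjusted p = 0.107), KO B (0.0567) or WT A (0.0579). In KO+Rescue, Eomes was at 73.9 and 51.7, Fst at 568 and 480, Trh at 2685 and 2413 and Nodal at 855 and 871, each below KO by the test (adjusted p = 0.000625, 0.000553, 6.73e-06 and 0.000476). Lefty2 did not return and was at 495 and 439. For Eomes, Trh and T the KO difference changed sign between the stages, with log2 changes of -0.62, -0.90 and -1.64 in mESCs against 1.82, 1.12 and 1.30 at day 2 (interaction adjusted p = 0.00464, 0.000940 and 0.00186). The mesoderm factor T had 30.3 and 34.8 in WT and 90.1 and 73.3 in KO at day 2 and lost its call there without KO A (adjusted p = 0.124), KO B (0.0539) or WT A (0.0539). Other mesendoderm factors were low in all 4 libraries, with Mixl1 at most 31.5, Gsc at most 8.69 and Foxa2 at most 30.3. Leaving out 1 library, 3 to 8 members rose, most without WT B, and 2 fell.

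**Figure D4:**
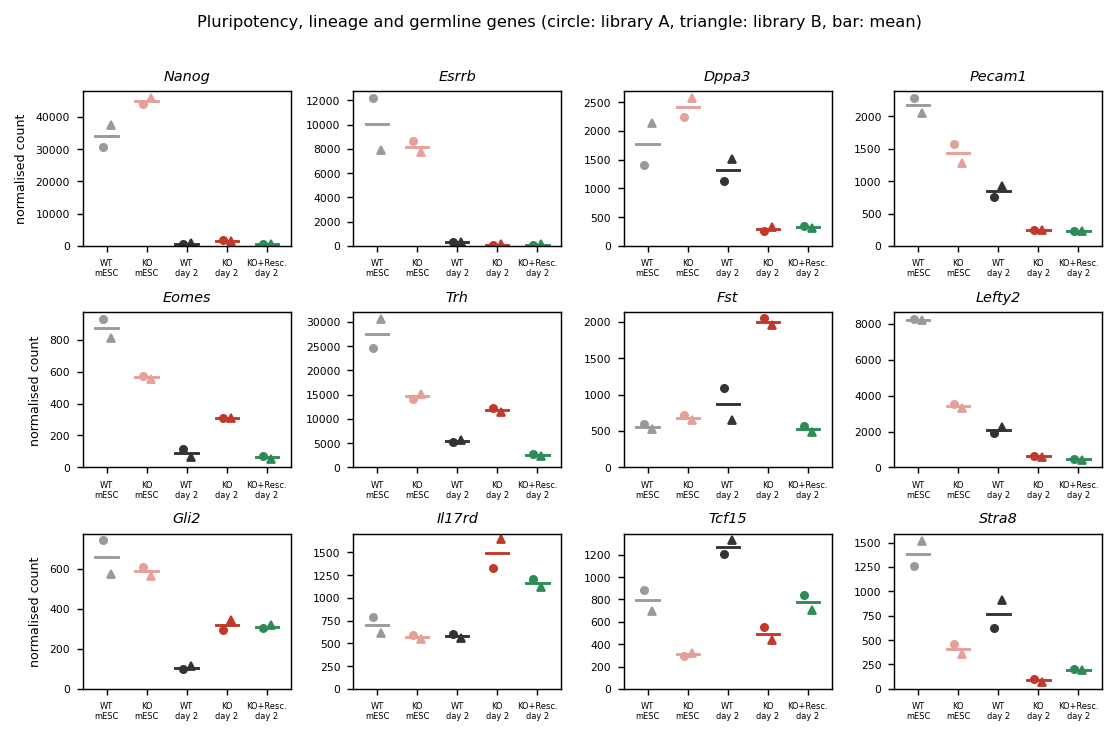
Normalised counts (vertical axes, linear from 0) of 12 pluripotency, lineage, signalling and germline genes in WT and KO mESCs and in WT, KO and KO+Rescue cells at day 2, with circles for library A, triangles for library B and bars for group means. In several panels the mESC groups set the scale, as for Esrrb with averages of 10042 and 8200, and Eomes is at 310 and 312 in KO against 117 and 65.2 in WT at day 2.

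Part of the ERK targets fell, and their feedback inhibitors did not share a direction. ERK is the kinase that FGF activates and that the MEK inhibitor of the mESC medium blocks, and growth factors switch on its immediate early targets within minutes. Of 37 tested members 8 fell and 1 rose (median -0.28). Fos, a subunit of the AP-1 factor, had normalised counts of 75.1 and 79.0 in WT and 6.65 and 10.5 in KO and fell 8.33-fold (log2 -3.06 ± 0.42, adjusted p = 0.000854). Junb fell 2.58-fold, and Ccnd1, the cyclin that drives entry into S phase, fell from 8073 and 7143 to 3801 and 3966 (1.96-fold, adjusted p = 0.000765). Il17rd, which encodes the FGF antagonist Sef, had 604 and 563 in WT and 1328 and 1651 in KO (2.54-fold higher, adjusted p = 0.000247). Dusp6, an ERK phosphatase, was at 8197 and 7102 in WT and 7295 and 6852 in KO and was not called (adjusted p = 0.728), while the related phosphatase gene Dusp4 fell from 2080 and 1507 to 684 and 703 (2.55-fold, adjusted p = 0.00377), a call lost without KO A (0.0512). Egr1 fell 3.93-fold and lost its call without KO A (adjusted p = 0.0698). In the FGF list 3 of 17 genes rose, the ligands Fgf5 and Fgf4 and the receptor Fgfr1, and 0 of these kept the call without KO A or KO B or with equal library totals. With 1 library left out 3 to 8 ERK targets fell and 1 rose. Of 22 tested genes of BMP and TGF-β signalling 3 fell and 0 rose, or 1 to 4 lower with 1 library left out. The BMP target Id1, an inhibitor of differentiation factors, went from 184 and 130 to 64.3 and 49.4 (2.72-fold lower, adjusted p = 0.000820). The WNT antagonist Notum had 73.2 and 54.3 in WT and 12.6 and 18.0 in KO (lower, adjusted p = 0.00178), among 37 tested WNT genes of which 2 fell and 1 rose, or 1 to 2 and 0 with 1 library left out.

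Germline genes fell in part. In somatic cells many of them are silenced by DNA methylation of their promoters, and naive mESCs express part of this set. Of 43 tested members 16 fell and 0 rose (median -0.58), and 7 to 15 fell with 1 library left out, with 1 member higher without WT B. The list was already lower in KO mESCs, with 17 members called lower and 0 higher and the same median of -0.58. That test called 9.41% of all genes. The interaction of KO and stage was called for 2 members, both lower, beside 1.12% of all genes. Stra8, a gatekeeper of meiosis, had normalised counts of 624 and 910 in WT and 103 and 68.8 in KO and fell 8.86-fold (log2 -3.15 ± 0.23, adjusted p = 7.33e-06). The X-linked paralogs Xlr3a and Xlr3b fell 11.9-fold and 7.10-fold, with 676 and 1201 in WT and 91.6 and 61.4 in KO for Xlr3a. Reads that fit both of these near-identical copies may affect the values of either. Tex19.1, which restrains retrotransposons, had 5615 and 6887 in WT and 1837 and 1955 in KO (3.28-fold lower, adjusted p = 1.29e-05), and Trap1a, an X-linked tumor antigen gene, fell 2.46-fold. Stra8 and Trap1a were higher in KO+Rescue than in KO (adjusted p = 0.0192 and 0.00193), at 201 and 194 for Stra8 and 4758 and 4274 for Trap1a, while Tex19.1 was not, at 1904 and 1975. Uncalled members included the germ cell RNA helicase gene Ddx4 (log2 -0.06) and, named outside the rule, Dazl (0.34) and Sycp3 (-0.04), which encode a germ cell RNA-binding protein and a chromosome axis protein. The E-box CACGTG, a motif through which the factors MGA and MAX hold germline genes silent, was in 12 of the 37 promoters found for the list, against 8.43% of all promoters, and in 0 of the 13 promoters of its called genes. Of 14 tested repressors of such genes 8 had a change above 0, with a median of 0.01 that was -0.09 with equal library totals. Dppa3, which shields maternal methylation marks, fell from 1122 and 1509 to 262 and 326 (4.44-fold, adjusted p = 7.81e-05), and Dnmt3l, which assists the enzymes that set new methylation, fell 2.13-fold. They were the 2 calls among 19 tested genes that write or protect DNA methylation.

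The largest rise of the comparison was in an imprinted gene. In the Dlk1-Dio3 cluster on chromosome 12, whose noncoding RNAs come from the maternal copy, 3 of 8 tested genes rose and 0 fell. The difference between the lines was not limited to day 2. Of the same 8 genes 4 were called higher and 1 lower in KO mESCs, in a test that called 9.41% of all genes. Their median log2 change was 0.83 in mESCs and 0.47 at day 2, and the interaction of KO and stage was called for 0 of them. Rian had normalised counts of 70.2 and 107 in WT and 8732 and 9014 in KO, 101-fold higher (log2 6.66 ± 0.21, adjusted p = 2.08e-09). Mirg, the host of a microRNA cluster, had 0.605 and 6.52 in WT and 208 and 174 in KO, 54.9-fold higher (5.78 ± 0.60, adjusted p = 9.64e-05), and the small nucleolar RNA gene AF357359 had 0 and 3.62 in WT and 180 and 216 in KO. Meg3, another noncoding RNA of the cluster, was also called higher, with log2 changes from 5.98 to 6.42 when 1 library was left out. Rian, Mirg, AF357359 and Meg3 were all called, so the 8 tested genes of the list did not include every one of them. The protein-coding genes of the cluster, from the paternal copy, did not share this rise, with Dlk1 at 134 and 72.5 in WT and 168 and 156 in KO (adjusted p = 0.339) and Dio3 at most 35.2. KO+Rescue cells held Rian at 3413 and 3322, below KO (adjusted p = 0.00580) and far above WT. Of 40 other imprinted genes 6 fell and 2 rose (median -0.01), or 4 and 1 with equal library totals. Those that fell included the growth restrainers Cdkn1c, from 4105 and 3263 to 1567 and 1398 (2.47-fold, adjusted p = 0.000309), and Phlda2 (2.77-fold). Nnat, which encodes the membrane protein neuronatin, fell from 1998 and 2099 to 846 and 766 and was back at 1715 and 1520 in KO+Rescue (KO+Rescue against KO, adjusted p = 0.00247). Peg10, a gene derived from a retrotransposon, fell 2.73-fold at day 2 and not in mESCs (interaction adjusted p = 0.00332). With 1 library left out 4 to 7 of these genes fell and 0 to 3 rose. H19 rose from 16.9 and 13.8 to 176 and 176 and lost its call without KO A (adjusted p = 0.105) or KO B (0.113).

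The TET genes and PROSER1 partners changed little. Of 18 tested members 2 rose and 0 fell (median 0.14). Tet1 had normalised counts of 1982 and 1485 in WT and 2474 and 3686 in KO (log2 0.82 ± 0.20, adjusted p = 0.0302) and lost its call without KO B (0.335) or WT B (0.115). Tet2, whose gene carries the floxed allele in all lines, had 67.8 and 77.5 in WT and 118 and 141 in KO (0.82 ± 0.18, adjusted p = 0.0194), and lost its call without KO A (0.0630), KO B (0.210) or WT A (0.0856). With equal library totals both calls were lost. The paraspeckle proteins Nono, Sfpq and Pspc1 had log2 changes of 0.17, 0.04 and 0.11. Among 27 Polycomb genes, which keep developmental genes silent, 2 rose and 1 fell, or 1 to 2 and 0 to 1 with 1 library left out, and Bmi1, a subunit of the repressive complex PRC1, rose from 347 and 312 to 684 and 704 (2.11-fold, adjusted p = 0.00115) and was at 406 and 376 in KO+Rescue.

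Of the 8 tested developmental genes that the study named as targets 4 rose and 0 fell. The study chose this list on these libraries, so the count is not independent evidence of its direction. Tbx15, a T-box factor of limb and skin, had normalised counts of 18.2 and 17.4 in WT and 96.0 and 80.8 in KO (4.75-fold higher, adjusted p = 0.0115). Prdm8, a histone methyltransferase family member, had 3.03 and 5.07 in WT and 47.3 and 61.4 in KO (log2 3.47 ± 0.81, adjusted p = 0.0265). The eye factor Pax6 and the Polycomb gene Cbx8 rose 2.79-fold and 2.41-fold. Between 0 and 3 of the calls were left with 1 library left out, and none of the 4 genes kept its call without KO B (adjusted p from 0.0851 to 0.244). Their log2 changes stayed above 0 in each of these fits, from 3.18 to 3.77 for Prdm8 and from 2.12 to 2.37 for Tbx15. Barx1 and Mef2c were not called, and Mef2c was at 45.4 and 30.4 in WT and 11.1 and 8.23 in KO.

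Called genes were unevenly spread over the chromosomes. On chromosome 16 37 of 452 tested genes were higher and 19 lower, or 8.19% and 4.20%, and on chromosome 11 10 of 1233 were higher and 76 lower, or 0.811% and 6.16%. The rise on chromosome 16 was in its distal part. Beyond 65.8 Mb (GRCm38) 34 of 88 tested genes rose, 0 fell and 84 had a change above 0, with a median of 1.49-fold (log2 0.58). The same 88 genes had a median of 0.56 in mESCs and of 0.28 in KO+Rescue against WT at day 2. Before this point 3 of 364 rose and 19 fell, with a median of 0.00. Hmgn1, a nucleosome-binding protein of this distal stretch, had normalised counts of 20567 and 25435 in WT and 80367 and 87613 in KO (3.67-fold higher, log2 1.88 ± 0.19, adjusted p = 9.48e-05) and 73655 and 71011 in KO+Rescue. Its neighbour Wrb, outside the naming rule, rose from 1567 and 1911 to 5795 and 5601. On chromosome 11 the median was -0.168, and the 1157 tested genes beyond 6.5 Mb had a median of -0.18 (-0.29 in mESCs). Irf1, Igtp, Irgm1, Pecam1 and Tex19.1, described above, all lie on this chromosome. The positions of both steps were chosen on these data, so the counts beside them are a description. Whether the number of copies of these stretches differs between the lines was not tested. Without genes of chromosomes 11 and 16, an alternative added after seeing the data, 175 genes were higher and 443 lower, and the GTPase list had 6 of 7 lower, the germline list 12 of 39 lower and the interferon signalling list 1 higher and 2 lower of 19.

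**Figure D5:**
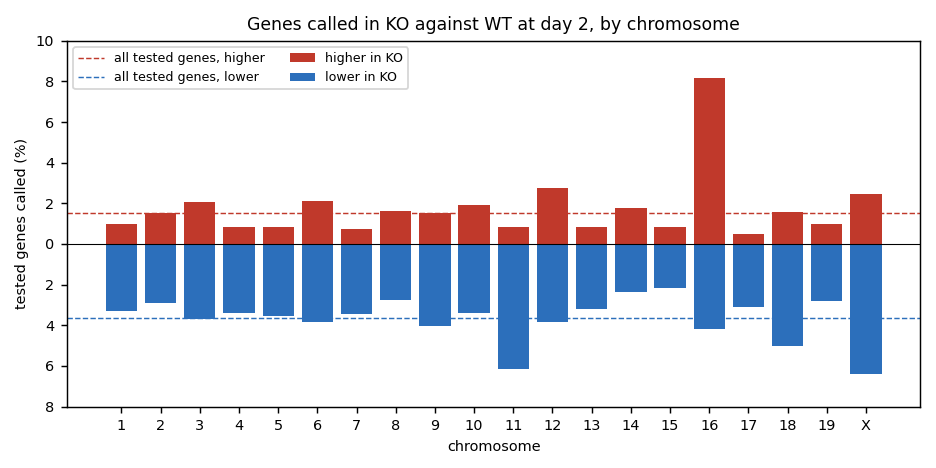
Percent of the tested genes of each chromosome that were called higher (red, upward) or lower (blue, downward) in KO against WT at day 2, with dashed lines at the shares of all tested genes (1.53% and 3.63%). Chromosome 16 stands out upward at 8.19%, and chromosomes 11 and X reach 6.16% and 6.38% downward.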

How the data were processed

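Total RNA libraries of 6 groups with 2 libraries each were compared. The authors trimmed read pairs with Trimmomatic, aligned them to mm10 with STAR, counted them per gene with featureCounts and deposited 1 table of normalised counts, a signal obtained by dividing counts by DESeq2 size factors (versions not given in the sources used here). Whole reads were recovered from it for 100% of values within 0.001, with 38634668 to 66450803 per library, and 0 columns were left out. Reads of the Y chromosome were described as removed, but the table holds Y-linked genes, and 6 of them were left out here.

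Genes with a mean of at least 10 over 12 libraries were tested with limma 3.58.1 (R 4.3.3) on log2 of the normalised count plus 1, with 6 group means, an intensity trend, two-sided tests and Benjamini-Hochberg adjustment over 15335 genes. A fold change on this scale understates changes of low genes. Calls required an adjusted p under 0.05. edgeR 4.0.16 and DESeq2 1.42.0 were run on the recovered reads as alternatives. The scripts were tested on simulated data. Named genes were Proser1, in each direction the 20 called genes that changed most, did not overlap between groups and had a higher group averaging at least 50, of each of 40 lists up to 10 called members with the smallest adjusted p and up to 6 with the highest counts, and the targets the study named. Uncalled cell type markers, list members that were not tested and genes so marked in the text lie outside this rule. The members and lists were chosen with earlier results of these data known. Positions and promoters came from RefSeq GRCm38.p6, which placed 98.3% of the tested genes. Column letters were not tied to replicate numbers. Same-lettered libraries did not deviate together in every pair of groups, so the letters were not taken to pair them. Shares and floors cover counting error only. Some genes are not reported here.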

Additional observations from a re-analysis of the deposited data

Results flagged for a closer look

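For 34 named genes the KO difference at day 2 departed from that in mESCs by the interaction term (limma, adjusted p under 0.05), and 18 of them had opposite signs at the stages, of which 3 were called at both. Values below are the log2 change in KO against WT at day 2 minus that in mESCs. Among interferon-induced genes this was -4.38 for Gbp2, -4.77 for Gbp3, -4.36 for Zbp1, -4.12 for Gbp2b, -3.52 for Gbp4, -2.43 for Parp14, -2.06 for Tapbp, -1.54 for Parp9 and -1.39 for Irf1. Cd274, which encodes the checkpoint ligand PD-L1, had -4.40. The pluripotency genes Dppa3, Pecam1, Nr5a2 and Fbxo15 had -2.62, -1.17, -1.66 and -1.42. Among lineage and signalling genes the values were 2.26 for Pax6, 2.02 for Trh, 2.44 for Eomes, 2.94 for T, 2.04 for Thy1, 1.63 for Il17rd, 0.95 for Smad7, 1.74 for Gli2, 1.18 for Crabp1 and -1.28 for Fgfbp1. Germline and imprinted genes gave -1.07 for Tex19.1, -1.80 for Trap1a, -1.77 for Peg10 and 1.85 for Grb10. The remaining genes were Asb9 (-4.87), Ccdc141 (-2.44), Pdk1 (-1.19), Slc2a3 (1.09), Hspb1 (-1.01) and Cldn4 (-1.62).

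The Y-linked genes outside the comparison had a lowest normalised count of 372 in the KO libraries at day 2, against a highest of 6.52 in the WT ones.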

How the results depend on the processing

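No call of a named gene reversed its direction, although uncalled genes such as Sfpq changed sign (0.37 without WT A, -0.28 without WT B). Of 157 called named genes 93 lost the call in at least 1 alternative. The count of 791 called genes became 1415 by DESeq2 with 12 libraries (483 higher, 932 lower), 404 in a fit of the 4 libraries alone (124 and 280) and 235 to 702 with 1 library left out (49 to 339 higher, 181 to 397 lower). The number higher was 353 by edgeR, 363 by DESeq2 on the 4 libraries and 126 with equal library totals. The interaction of KO and stage, with 172 calls (77 higher, 95 lower), gave 490 by DESeq2 (252 and 238), 99 with equal library totals (38 and 61), 105 with no filter on low values (43 and 62) and 59 lower without the intensity trend. With a replicate block on the column letters 1613 genes were called (694 and 919), and 498 for the interaction (243 and 255). Deviations of libraries with the same letter correlated over genes with r = 0.006 between WT and KO at day 2, and with r from -0.048 to 0.413 over all pairs of groups, highest between WT mESCs and WT at day 2, which both enter the interaction. Since not every pair passed 0.1, the block is given only as an alternative. With 2 libraries a group and 61111817 to 66450803 read pairs a library, the precision is set by the number of libraries, and the cause of these movements was not tested.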

Other observations

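Metabolic genes moved singly. Pdk1, a kinase that keeps pyruvate out of mitochondria, had normalised counts of 20979 and 22235 in WT and 7197 and 6615 in KO at day 2 (3.13-fold lower, limma adjusted p = 3.00e-05) and 12370 and 11963 in KO+Rescue. The neuronal-type glucose transporter gene Slc2a3 went the other way, from 3312 and 3624 to 7030 and 6932 (2.02-fold higher, adjusted p = 0.00115), and the phosphofructokinase gene Pfkp fell 2.25-fold. They were the 3 calls among 24 tested genes of hypoxia and glycolysis. Cth, which makes cysteine, rose from 2676 and 3147 to 6633 and 6777 (2.31-fold, adjusted p = 0.000153), 1 of 2 rises among 24 genes of the integrated stress response.

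Asb9, a ubiquitin ligase adaptor gene, had 238 and 355 in WT and 5.17 and 15.7 in KO (28.7-fold lower, adjusted p = 0.000120), and differed by 0.03 on the log2 scale in mESCs. All 22 tested genes of cytosolic ribosomal proteins had a change above 0 under the 3 scalings run, with a median of 0.27 as deposited and 0.17 with equal library totals. Without WT A, the library with the lowest ribosomal share, the median was 0.10 with 18 of 22 above 0, and without WT B it was 0.46.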
